A study of Mus musculus with 12 samples.

Results

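The genes described here encode the SR proteins, the heterogeneous nuclear ribonucleoproteins (hnRNPs) and the SF3a and SF3b complexes, the main families of pre-mRNA splicing factors. They were chosen by name alone, as every gene whose symbol begins with Hnrnp, or with Srsf, Sf3a or Sf3b and a number, leaving out names with the pseudogene suffix -ps. The rule found 40 genes of 48709 listed, namely 11 SR protein genes, 20 hnRNP genes and 9 SF3 genes, and all 40 were among the 17833 genes that the authors tested. They lie on 17 chromosomes.

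The RNA came from CD8 T cells that recognise Spas-1, a tumour antigen of TRAMP-C2, a transplantable mouse prostate tumour line. Wild type C57BL/6 mice of postnatal day 91 carried this tumour, and live cells positive for CD45, CD3, CD8 and the Spas-1 tetramer, and negative for Spas-2, were sorted from their draining lymph nodes on day 28. The 4 arms received anti-CTLA-4, or anti-PD-1 DANA, or both antibodies together (the combination, labelled Combo), or an isotype control antibody. DANA names a form of the antibody whose Fc part is mutated so that Fc receptors bind it poorly. The antibodies were given on days 3 and 6 and once more, on day 9 by the sample labels and on day 8 by the series text. In each arm the cells of 5 mice were pooled and the pool was divided into 3 libraries, so the 3 libraries are technical splits of 1 pool. A p-value here measures only the spread between such splits, and arm and pool cannot be told apart. Each library was made from 0.25 ng of RNA with 21 cycles of amplification.

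Splicing removes introns from pre-mRNA. The U2 snRNP, of which SF3a and SF3b are parts, marks the branch point of each intron. SR proteins bind exons and mostly favour their inclusion, whereas hnRNPs often oppose it, and the balance between both families helps to set which exons a cell keeps. In T cells a known example is CD45 (Ptprc), whose variable exons are skipped after activation, with Hnrnpll as a main regulator in mouse and human lymphocytes.

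Each of the 3 tables that the authors deposited sets a treatment against isotype, with a log2 fold change, a p-value and the larger of both group means in RPKM (reads per kilobase of exon, scaled to library size), and no value per library. All fold changes below are log2 values of the treated arm over isotype, ± a standard error derived from the p-value of the authors. A gene is called where the authors' false discovery rate (adjusted p), taken over all listed genes, is under 0.05. Library sizes were recovered from the smallest RPKM values and ranged from 14729713 to 42556869 reads. The authors' scaling differs from scaling by library size. Library size scaling would raise every fold change by 0.94 where anti-CTLA-4 was given, 0.82 where anti-PD-1 DANA was, and 0.11 in the combination. Of the 8 CD8 T cell markers used to check the sort, such as Cd8a and Cd3e, none was called in any of the authors' deposited tables, and their larger means summed to 2265, 2423 and 2135 RPKM in the tables for anti-CTLA-4, then anti-PD-1 DANA, then the combination.

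Of the splicing factor genes, 2 were called in any comparison against isotype. Sf3b1 encodes the largest SF3b subunit, which clamps the branch point in the U2 snRNP, and it fell with anti-PD-1 DANA and with the combination. Hnrnpf, which binds runs of G in pre-mRNA, fell with the combination. Because these are the called genes, their promoters are shown here from RefSeq (GRCm38.p6), as 250 bases before and 50 bases after the annotated start. The Sf3b1 window lies at chr1:55027429-55027728 on the minus strand and the Hnrnpf window at chr6:117900090-117900389 on the plus strand, with starts 3 and 16 bases from the 5′ ends in the authors' deposited table. Capitals mark GC boxes (GGGCGG or its reverse complement) in Sf3b1 and an ETS core (CCGGAAG) in Hnrnpf.
Sf3b1: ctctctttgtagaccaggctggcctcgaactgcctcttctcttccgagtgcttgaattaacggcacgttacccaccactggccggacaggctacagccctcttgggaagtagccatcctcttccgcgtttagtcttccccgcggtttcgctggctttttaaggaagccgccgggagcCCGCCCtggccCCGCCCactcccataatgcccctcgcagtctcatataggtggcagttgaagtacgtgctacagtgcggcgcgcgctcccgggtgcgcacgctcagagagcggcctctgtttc
Hnrnpf: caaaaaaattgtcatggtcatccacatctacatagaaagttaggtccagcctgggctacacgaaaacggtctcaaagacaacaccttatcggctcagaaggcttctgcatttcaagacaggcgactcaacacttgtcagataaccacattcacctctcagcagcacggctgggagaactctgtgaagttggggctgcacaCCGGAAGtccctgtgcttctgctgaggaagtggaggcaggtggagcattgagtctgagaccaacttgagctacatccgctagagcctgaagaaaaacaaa

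The GC boxes of Sf3b1 begin 73 and 62 bases before the start, and the ETS core of Hnrnpf 50 bases before it. RefSeq promoters were matched for 36 of the 40 genes, leaving Hnrnpll, Hnrnpul2, Sf3b4 and Sf3b5. On either strand, a GC box was found in 75% of the 36 promoters and in 57.9% of 11733 promoters of tested genes, an ETS core in 33.3% and 16.2%, and a CCAAT box (CCAAT) in 50% and 38.7%. TATAAA was found in 13.9% and 8.15%, and the cAMP response element TGACGTCA in 0 of 36 and 2.96%. CpG-rich promoters, with an observed over expected CpG ratio above 0.6, made up 97.2% of the 36, against 63.4% of the tested genes. Hnrnpf, with a ratio of 0.384, was the single exception among the 36. These matches describe letters in a window and were not tested as binding sites.

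Splicing factor genes were abundant in these cells. The median of their highest deposited mean was 17.1 RPKM, against 2.47 RPKM over all tested genes, and 19 of 40 (47.5%) reached 20 RPKM, against 11.9% of tested genes. Hnrnpf was the highest, at 159.8 RPKM with anti-CTLA-4 and 146.4 RPKM with isotype in the authors' deposited tables. Below it stood Srsf2, an SR protein that binds exonic enhancers, at 76.1 RPKM, Srsf7, which also helps to export mRNA, at 69.4 RPKM, and Hnrnpa2b1, a repressor of exon inclusion, at 68.3 RPKM, all of these the isotype means of the authors' deposited tables. Sf3b1 had an isotype mean of 57.6 RPKM. At the other end stood Srsf12, a repressor with restricted expression, whose highest mean was 0.418 RPKM, and Hnrnpll, at 1.12 RPKM, both in the anti-PD-1 DANA arm. In 12 of the 40 genes the isotype mean exceeded all 3 treated means in the authors' deposited tables. The share of all tested genes with this order was not counted, so the 12 cannot be read as a trait of the splicing factors.

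**Figure D1:**
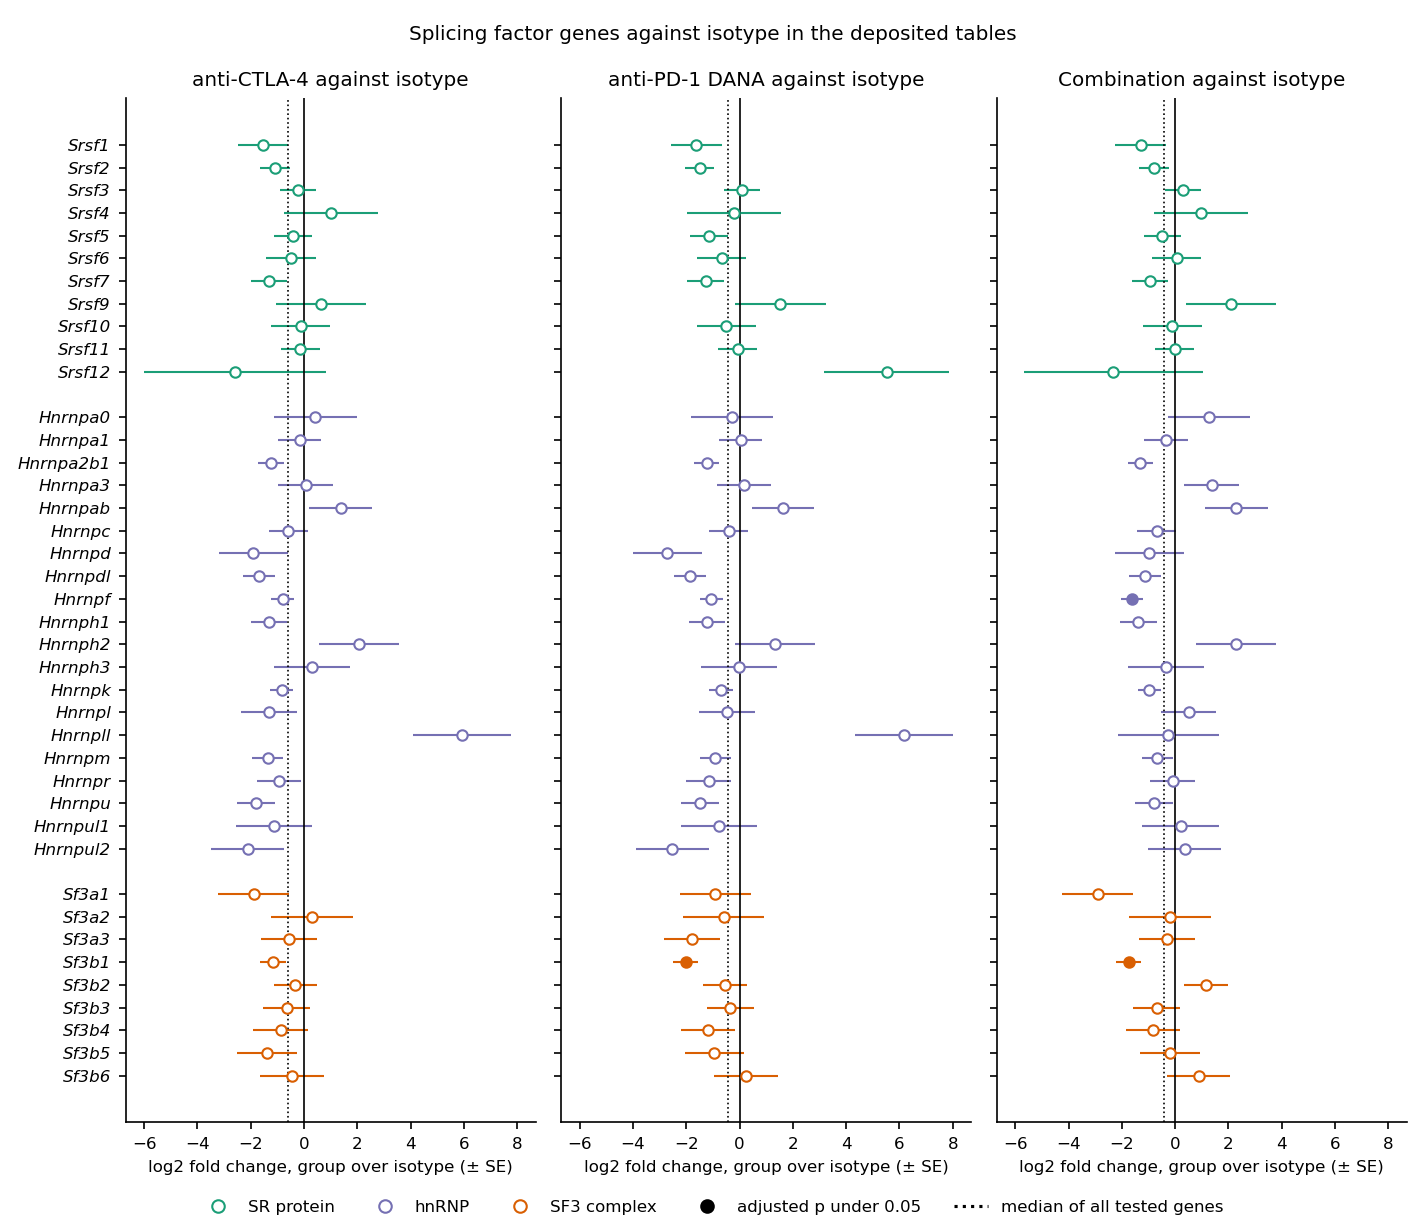
Log2 fold change of each splicing factor gene over isotype (horizontal axis, ± the implied standard error) for anti-CTLA-4, then anti-PD-1 DANA, then the combination, by family and gene (vertical axis), from the authors' deposited tables. Filled points have an adjusted p under 0.05, open points do not, and the dotted line is the median of all tested genes. Filled points are Sf3b1 with anti-PD-1 DANA and Sf3b1 and Hnrnpf with the combination, and Hnrnpll stands far right, at 5.93 and 6.16, in the panels for anti-CTLA-4 and anti-PD-1 DANA, without a call.

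Anti-CTLA-4 against isotype called none of the 40 genes, where 4.23% of all tested genes were called in the authors' deposited table (1.49% lower), and 2.68% of those with a larger mean of 20 to 200 RPKM. At an unadjusted p under 0.05 there were 7 genes, 1 higher and 6 lower, where 22.9% of all tested genes had such a p. Hnrnpll was the higher one, and the lower ones were Hnrnpdl, Hnrnpa2b1, Hnrnpu, Sf3b1, Hnrnpm and Srsf2. With such a p, 2633 of all tested genes were higher and 1452 lower. In the range of 20 to 200 RPKM, which held 5 of the lower splicing factors, 46 tested genes were higher and 281 lower. Fold changes of the 40 ran from -2.58 to 5.93 in the authors' deposited table. The median fold change of the 40 was -0.73 on the authors' scaling, beside -0.62 over all tested genes, and 0.21 on the library size scale, so its sign depends on the scaling. By family, the median was -0.42 for the SR proteins, -0.89 for the hnRNPs and -0.65 for SF3, and 31 of the 40 lay below 0, beside 59.4% of tested genes and 78.3% of those with a larger mean of 20 to 200 RPKM. On the library size scale 16 of the 40 lay below 0, beside 34% of tested genes. Among genes with a larger mean of 20 to 200 RPKM, the 18 splicing factors had a median of -0.82 and all tested genes -0.84. Sf3b1 had a fold change of -1.17 ± 0.48 in the authors' deposited table, with an adjusted p of 0.266. Hnrnpdl, a relative of the AU-rich element binding protein Hnrnpd, had -1.69 ± 0.60 (adjusted p = 0.138), and Hnrnpu, a nuclear scaffold protein, -1.81 ± 0.71 (adjusted p = 0.231) in the same deposited table.

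Anti-PD-1 DANA against isotype called 1 of the 40 genes, 2.5% of them, where 3.75% of all tested genes were called in the authors' deposited table (1.32% lower), and 3.06% of those with a larger mean of 20 to 200 RPKM. Sf3b1 fell by 2.02 ± 0.48 on the log2 scale (adjusted p = 0.00695), a 4.07-fold lower value with a 95% interval of -2.96 to -1.09, as taken from the authors' deposited table. On the library size scale its fold change was -1.21 and no longer passed the threshold. At an unadjusted p under 0.05 there were 9 genes, 2 higher and 7 lower, where 23.1% of all tested genes had such a p. Hnrnpll and Srsf12 were the higher ones, and the lower ones were Sf3b1, Hnrnpdl, Srsf2, Hnrnpa2b1, Hnrnpf, Hnrnpd and Hnrnpu. With such a p, 2736 of all tested genes were higher and 1385 lower. In the range of 20 to 200 RPKM, which held 5 of the lower splicing factors, 58 tested genes were higher and 280 lower. Fold changes of the 40 ran from -2.71 to 6.16 in the authors' deposited table. The median of the 40 was -0.69 on the authors' scaling, beside -0.45 over all tested genes, and 0.12 on the library size scale. The family medians were -0.50 for SR proteins, -0.74 for hnRNPs and -0.91 for SF3, and 31 of the 40 lay below 0, beside 56.5% of tested genes and 75.9% of those with a larger mean of 20 to 200 RPKM. Library size scaling left 18 of the 40 below 0, beside 34% of tested genes. Among genes of 20 to 200 RPKM, the 19 splicing factors had a median of -1.06 and all tested genes -0.77. Hnrnpdl had -1.87 ± 0.60 (adjusted p = 0.0813) and Srsf2 had -1.50 ± 0.56 (adjusted p = 0.173) in the authors' deposited table.

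The combination against isotype called 2 of the 40 genes, 5% of them, where 7.53% of all tested genes were called in the authors' deposited table (3.59% lower), and 9.47% of those with a larger mean of 20 to 200 RPKM. Sf3b1 fell by 1.75 ± 0.48 on the log2 scale (adjusted p = 0.0155), a 3.36-fold lower value, by the authors' deposited table. Hnrnpf fell by 1.62 ± 0.43 on the log2 scale (adjusted p = 0.0110), a 3.08-fold lower value, by the authors' deposited table. On the library size scale both calls stood, at -1.64 for Sf3b1 and -1.52 for Hnrnpf. Centred on the median of all tested genes, they were -1.33 and -1.20 and neither passed. At an unadjusted p under 0.05 there were 6 genes, all lower, where 23.2% of all tested genes had such a p. These were Hnrnpf, Sf3b1, Hnrnpa2b1, Hnrnpk, Hnrnph1 and Sf3a1, the last of which, a subunit of SF3a, had the lowest value of the 40, -2.91 ± 1.34 in the authors' deposited table. Hnrnpab had the highest, 2.30. With an unadjusted p under 0.05, 2216 of all tested genes were higher and 1930 lower. In the range of 20 to 200 RPKM, which held 5 of the lower splicing factors with such a p, 88 tested genes were higher and 325 lower. The median of the 40 was -0.33 on the authors' scaling, beside -0.42 over all tested genes, and -0.22 on the library size scale. The family medians were -0.11 for SR proteins, -0.35 for hnRNPs and -0.32 for SF3, and 27 of the 40 lay below 0, beside 57% of tested genes, or 25 of the 40 on the library size scale, beside 55.7%. Of all tested genes with a larger mean of 20 to 200 RPKM, 67.1% lay below 0, as did 14 of the 18 splicing factors there. Their median was -0.75, and that of all tested genes in this range -0.65.

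Sf3b1 lies on chromosome 1 at 54985169 to 55027481 on the minus strand and Hnrnpf on chromosome 6 at 117900324 to 117925622 on the plus strand, in GRCm38 coordinates of the authors' deposited tables. The isotype mean of Sf3b1, 57.6 RPKM, stood above every treated mean, and each treated mean is not given beyond being lower. Between treatments Sf3b1 did not pass the test. Its difference was -0.59 (95% interval -1.52 to 0.35) for the combination over anti-CTLA-4, 0.27 (-0.66 to 1.21) for the combination over anti-PD-1 DANA and 0.86 (-0.07 to 1.79) for anti-CTLA-4 over anti-PD-1 DANA. Each table gives only the larger mean, so both means of a comparison are known only where the treated one is the higher in RPKM, as for Hnrnpf with anti-CTLA-4. Its anti-CTLA-4 mean, 159.8 RPKM, was above its isotype mean, 146.4 RPKM, a log2 ratio of 0.13, while the deposited fold change was -0.81. Exons of Hnrnpf overlap by 13.5% and 13.0% with a pair of unnamed transcripts of uncertain coding status on the opposite strand, both listed at 0 RPKM.

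**Figure D2:**
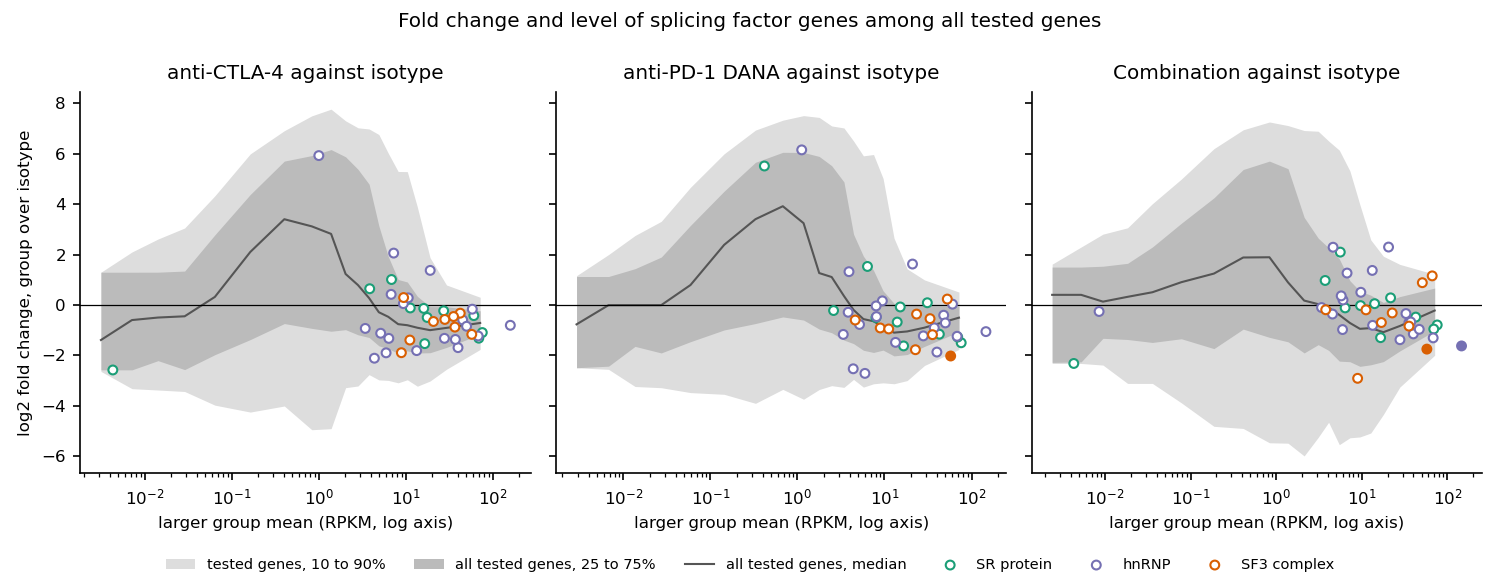
Log2 fold change over isotype (vertical axis) against the larger of both group means in RPKM (horizontal log axis) for the splicing factor genes, coloured by family and filled where called, from the authors' deposited tables. Grey bands and line give the 10 to 90% and 25 to 75% ranges and the median of tested genes with a mean above 0, in 20 bins of level. The called genes lie at 57.6 and 146.4 RPKM. In the panels for anti-CTLA-4 and anti-PD-1 DANA, Hnrnpll at about 1 RPKM sits near the upper edge of the 25 to 75% band. In the combination panel it lies at 0.00853 RPKM and -0.26, inside that band.

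Hnrnpll, the regulator of CD45 exon skipping, lies on chromosome 17 at 80029487 to 80062334, 138 kb from Srsf7 on the same chromosome. Its mean was 1.01 RPKM with anti-CTLA-4 and 1.12 RPKM with anti-PD-1 DANA, whereas the larger of the combination and isotype means was 0.00853 RPKM in the authors' deposited tables. That value stands for about 8 isotype reads or 10 combination reads over 3 libraries, against 964 reads with anti-CTLA-4 and 1134 with anti-PD-1 DANA. The anti-CTLA-4 and anti-PD-1 DANA means were thus at least 118-fold and 131-fold higher than either of the other arms, in RPKM. Recovered reads in the anti-CTLA-4 libraries, in order of library size, were 76, 5 and 883, equal to 0.442, 0.0224 and 2.56 RPKM. In the anti-PD-1 DANA libraries they were 288, 147 and 699, equal to 1.02, 0.470 and 1.87 RPKM. One library thus gave 84.6% of the anti-CTLA-4 mean, and without it the mean of the other two was 0.232 RPKM. In anti-PD-1 DANA the highest library gave 55.7%, and the mean without it was 0.744 RPKM. Among the 14 B cell markers, the authors' deposited tables called 3 higher under anti-CTLA-4, 1 lower under anti-PD-1 DANA, and 1 higher (Fcer2a) and 2 lower in the combination, and their part in the Hnrnpll values was not tested.

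The deposited fold changes of Hnrnpll were 5.93 ± 1.84 with anti-CTLA-4 (adjusted p = 0.0662) and 6.16 ± 1.84 with anti-PD-1 DANA (adjusted p = 0.0568) in the authors' deposited tables, so neither was called. With the combination the value was -0.26 ± 1.91. Over the bins of all tested genes with median levels of 0.835 and 1.39 RPKM, the upper quartile with anti-CTLA-4 was 5.93 and 6.17, and with anti-PD-1 DANA the bin at 1.18 RPKM had an upper quartile of 6.05. The combination over anti-CTLA-4 was -6.19 (95% interval -9.86 to -2.51, adjusted p = 0.135), and over anti-PD-1 DANA -6.41 (-10.1 to -2.74, adjusted p = 0.136), by a normal test of the difference of deposited fold changes. Anti-CTLA-4 over anti-PD-1 DANA was -0.23 (-3.84 to 3.39).

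Among the other named SR proteins, none was called in any comparison. Srsf2 had -1.09 ± 0.56, -1.50 ± 0.56 and -0.79 ± 0.56 with anti-CTLA-4, then anti-PD-1 DANA, then Combo, and Srsf7 had -1.32 ± 0.68, -1.27 ± 0.68 and -0.95 ± 0.68, in the authors' deposited tables. Srsf3, a small SR protein active in mRNA export, had -0.23 ± 0.68, 0.09 ± 0.68 and 0.28 ± 0.68 in the authors' deposited tables, and 0.71, 0.90 and 0.39 on the library size scale. Exons of Srsf2 overlap over 15.6% of their length with Mettl23 on the opposite strand, which reached 51.5 RPKM, and those of Srsf4 over 43.0% with Gm12992, which reached 0.306 RPKM. The counting is not stated to use strand, so reads from both genes of such a pair cannot be told apart. Srsf5 had -0.42 ± 0.70, -1.16 ± 0.70 and -0.48 ± 0.70 in the same tables. Srsf12 was not called with anti-PD-1 DANA (adjusted p = 0.316) in the authors' deposited table. Its anti-PD-1 DANA mean came from 126 reads in 1 library and 0 in the other two, against 1 read over the 3 isotype libraries.

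Among hnRNPs that were not called, Hnrnpa2b1 had -1.23 ± 0.48, -1.24 ± 0.48 and -1.30 ± 0.48 with anti-CTLA-4, then anti-PD-1 DANA, then Combo in the authors' deposited tables. Hnrnpk, a poly(C)-binding protein, had -0.84 ± 0.44, -0.71 ± 0.44 and -0.97 ± 0.44 in the authors' deposited tables. Hnrnpa1, a partner and antagonist of SR proteins, stood at -0.17 ± 0.82, 0.03 ± 0.82 and -0.34 ± 0.82 in the same tables. Hnrnpab had 1.37 ± 1.17, 1.63 ± 1.17 and 2.30 ± 1.17, Hnrnph2, a relative of Hnrnpf, had 2.06 ± 1.50, 1.32 ± 1.50 and 2.29 ± 1.50, and Hnrnpa3, a relative of Hnrnpa1, had 0.05 ± 1.03, 0.16 ± 1.03 and 1.37 ± 1.03, in the authors' deposited tables. Hnrnpab reads were 619, 1233 and 1581 in the anti-CTLA-4 libraries, 915, 2916 and 914 in anti-PD-1 DANA and 1890, 659 and 3156 in the combination. For the combination reads, 0.412 solutions were expected by chance, where at most 0.5 was allowed. Exons of Hnrnpab overlap on the opposite strand with Phykpl, over 29.1% of their length.

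In the SF3 complexes, Sf3b2 had -0.32 ± 0.82, -0.54 ± 0.82 and 1.16 ± 0.82 with anti-CTLA-4, then anti-PD-1 DANA, then Combo in the authors' deposited tables, and its combination mean, 66.5 RPKM, was its highest. Sf3b6, which contacts the branch point adenosine, had -0.46 ± 1.19, 0.24 ± 1.19 and 0.88 ± 1.19 in the same tables. No difference between treatments passed for any of the 40 genes. The called share of all tested genes was 0.903% for the combination over anti-CTLA-4, 0.449% for the combination over anti-PD-1 DANA and 0% for anti-CTLA-4 over anti-PD-1 DANA, and the smallest adjusted p among the 40 was 0.135, 0.136 and 1. At an unadjusted p under 0.05 there were 1, 3 and 0 of the 40, where 12.5%, 11% and 6.46% of all tested genes had such a p.

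Library-level reads could be recovered for 32 of 41 means tried, in 14 genes, which were chosen by whether their reads could be solved. The called genes, Sf3b1 and Hnrnpf, were not among the 14, so the spread of their libraries is not known. Only 3 of 41 were solved when exon lengths were set 1 base too long. The highest library exceeded the lowest by at least 2-fold in 26 means, by at least 10-fold in 12, and 2 means held libraries at 0 reads. One library gave 80% or more of the mean in 5 of the 32, and the median share of the highest library was 55.1%. Sf3b4, a subunit next to the branch point, had 0.309, 55.5 and 51.1 RPKM in the isotype libraries, from 16, 2940 and 3629 reads, so the library with 16 reads stands far below the other two. For these isotype reads of Sf3b4, 0.335 solutions were expected by chance, where at most 0.5 was allowed. In the anti-CTLA-4 libraries Sf3b4 had 40.4, 40.1 and 30.0 RPKM. Srsf4 had 10.5, 0.658 and 0.0264 RPKM in the combination libraries, and 1 library thus gave 93.9% of its mean. Sf3a2 had 0.0628, 1.80 and 9.51 RPKM in the isotype libraries. Its exons overlap over 16.1% of their length with Plekhj1 on the opposite strand, which reached 53.0 RPKM, so reads of both genes cannot be told apart there.

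**Figure D3:**
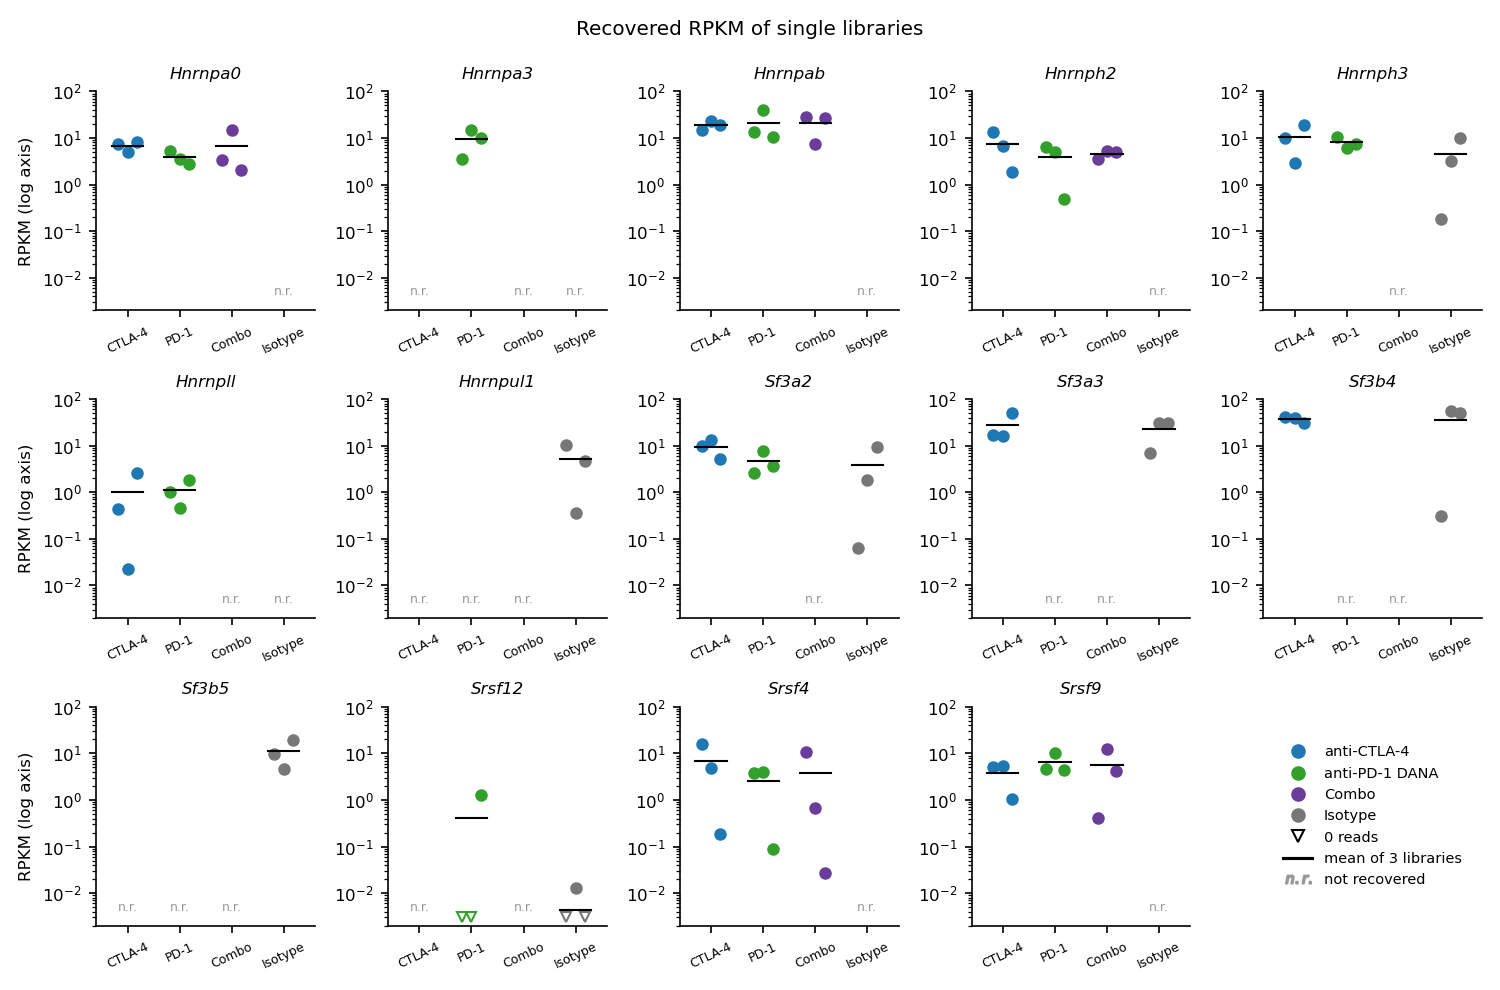
RPKM of single libraries (vertical log axis) for the 14 splicing factor genes whose reads could be recovered, by arm (anti-CTLA-4, anti-PD-1 DANA, combination, isotype), with points in order of library size, black lines at the mean, triangles for 0 reads and n.r. where not recovered. Libraries of 1 pool differ widely for several genes, as in Srsf4 with the combination (10.5, 0.658 and 0.0264 RPKM) and Sf3b4 with isotype.

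The wider spliceosome was read from 93 other genes, of which 92 were tested. Of the 92, 1 (1.09%) was called under anti-CTLA-4, 1 (1.09%) under anti-PD-1 DANA and 5 (5.43%) in the combination in the authors' deposited tables, beside 4.23%, 3.75% and 7.53% of all tested genes. Lsm4, a U6 snRNP protein, fell by 2.96 ± 0.59 with anti-CTLA-4 (adjusted p = 0.00141), from the authors' deposited table. In the authors' deposited table Son, an SR-related scaffold of nuclear speckles, fell by 1.69 ± 0.44 with anti-PD-1 DANA (adjusted p = 0.0186). With the combination, the authors' deposited table called Clk1, a kinase that phosphorylates SR proteins, at -1.75 ± 0.53 (adjusted p = 0.0410), and Prpf38a, a factor of spliceosome activation, at -4.50 ± 1.34 (adjusted p = 0.0335). By the authors' deposited table Srpk3, another SR protein kinase, fell by 8.10 ± 2.34 (adjusted p = 0.0264), but its isotype reads were 2, 2 and 352, and without the highest library the isotype mean was 0.0296 RPKM, against 1.30 RPKM with it. Snrpb2, a U2 snRNP protein, rose by 5.80 ± 1.30 (adjusted p = 0.00214) and Prpf40b, related to a yeast U1 snRNP protein, by 8.19 ± 2.27 (adjusted p = 0.0184) with the combination, as the authors' deposited table gave it. The call of Lsm4 stood on the library size scale, at -2.02, while those of Son, at -0.87, and Clk1, at -1.64, ended there. Prpf38a was still called there, at -4.40, but not when centred on the median of all tested genes, at -4.08, or in 20 bins of level, where the call of Prpf40b ended too, at 6.74. Reads in the combination libraries were 160, 3890 and 1960 for Snrpb2 and 29, 196 and 375 for Prpf40b.

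By group, the highest-expressed gene without a call was Rnps1 among SR-related proteins, Phf5a among branch point factors, Pcbp1 among other RNA-binding regulators and Ddx39b among helicases, at 58.2, 54.4, 70.2 and 42.5 RPKM, and their fold changes in the authors' deposited tables ran from -1.83 to 0.84. The median of the 92 genes was -0.79 under anti-CTLA-4, -0.77 under anti-PD-1 DANA and -0.39 in Combo, beside -0.73, -0.69 and -0.33 in the 40 splicing factors. Markers of other cell types moved in the same tables. Besides the B cell markers given with Hnrnpll, of 8 tested myeloid markers 3 were called lower with anti-CTLA-4, 1 higher and 1 lower with anti-PD-1 DANA, and 2 lower with the combination. At an unadjusted p under 0.05, 3 were higher and 3 lower with anti-CTLA-4, 4 higher and 1 lower with anti-PD-1 DANA, and 4 lower with the combination. With anti-CTLA-4, C1qa had -9.69 ± 2.42, whereas C1qb had 9.92 ± 3.33 and C1qc 10.3 ± 3.16, so this list did not move as 1. The larger means of the 14 B cell markers summed to 1159, 596 and 559 RPKM in these tables. Only 6 of the 14 isotype means were known. These 6 summed to 332.7 RPKM, which cannot be set against sums over 14 genes, and none of the 6 was at 0. The larger means of the myeloid markers summed to 126, 86.8 and 66.9 RPKM, and 1 of the 4 known isotype means, that of Adgre1, was at 0. Of 4 CD4 T cell markers, the authors' deposited table called Cd4 itself higher with anti-CTLA-4, by 8.23 ± 2.36 (adjusted p = 0.0390), at a larger mean of 2.48 RPKM. The others were not called there and went both ways, with Il2ra at 7.24 ± 3.23, Foxp3 at -0.11 ± 2.42 and Zbtb7b at -1.35 ± 1.96. None of the 3 tested erythroid markers was called, but all 3 had an unadjusted p under 0.05 with anti-CTLA-4, at 6.89 to 7.92 in the authors' deposited table, and their larger means summed to 18.5, 0.0948 and 3.13 RPKM, with Hbb-bt listed at 0 throughout. None of 4 dendritic cell markers was called, and Siglech, with an isotype mean of 24.97 RPKM, had -4.61 ± 1.70, -5.54 ± 1.70 and -2.44 ± 1.70 in the authors' deposited tables. At an unadjusted p under 0.05 there were 2, 2 and 1 of the 4. These were 1 higher and 1 lower with each antibody alone, and 1 higher with the combination. The higher ones were Flt3 with anti-CTLA-4 (7.03 ± 2.41), Xcr1 with anti-PD-1 DANA (7.70 ± 2.48) and Itgax with the combination (6.35 ± 2.18). The dendritic cell markers thus moved in both directions. Neither of the 2 tested NK cell markers was called, and Ncr1 was listed at 0. The part of all these markers in the splicing factor values was not tested, and in bulk RNA fewer cells of a type and less RNA per cell cannot be told apart.

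**Figure D4:**
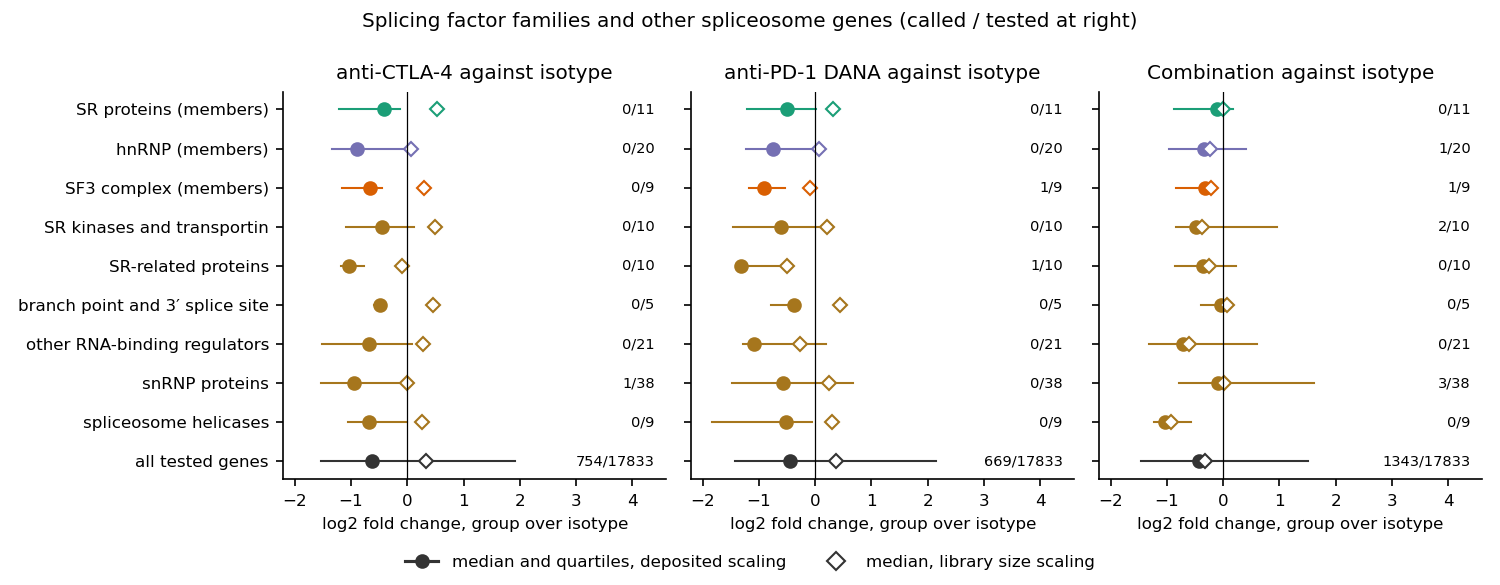
Median log2 fold change over isotype (horizontal axis) of the splicing factor families, other spliceosome groups and all tested genes (vertical axis), for anti-CTLA-4, then anti-PD-1 DANA, then the combination. Filled circles with quartile lines are on the authors' scaling, open diamonds on the library size scale, and called and tested counts stand at the right. With anti-CTLA-4 the circles of the families stand at -0.42, -0.89 and -0.65, beside -0.62 for all tested genes. Every diamond lies to the right of its circle, by 0.94 in the panel for anti-CTLA-4, 0.82 in that for anti-PD-1 DANA and 0.11 in that for the combination.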

How the data were processed

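RNA was measured in 12 libraries, 3 technical splits of 1 pool per arm. Per the labels' protocols, CLC Genomics Workbench aligned the reads and quantified genes. The submitters' processing notes name the genome GRCm38.p5. For the statistical model and the annotation release, the answer is not given in the sources used here. For each gene the authors deposited the larger of both group means in RPKM, a log2 fold change, its linear form as a score with a sign, a p-value, and p-values adjusted as a false discovery rate or by Bonferroni. Only comparisons were deposited, so count models in edgeR or DESeq2 could not be fitted and the authors' test was used.

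The splicing factor genes and the other lists were chosen with earlier results of these data known. Named genes are all called ones, the 3 with the smallest p in each direction per comparison, the 10 with the highest mean and the 2 with the smallest error per family. Outside this rule, all genes with an unadjusted p under 0.05 against isotype are listed by name, among them Sf3a1, Hnrnpm, Hnrnpd and Hnrnph1. Genes without a matched promoter are named as well. The other spliceosome genes named are the called ones and the highest of each group. Sf3b4, Srsf4, Sf3a2, Hnrnpa3 and the markers named singly were added after their values were seen, as were the recovery of reads and the promoter motifs. The standard error is the size of the log2 fold change divided by the normal quantile that belongs to its p. Treatments were compared by a normal test of the difference of fold changes, with equal variances where the 3 errors lay within 5%, as in 39 of the 40 genes, otherwise with an upper bound, and adjusted over 48709 genes. Library sizes and whole reads per library were solved from exon lengths in GENCODE M21, keeping solutions that were unique and had at most 0.5 expected by chance. Library size scaling used genes with both means known and an isotype mean of 5 RPKM or more (418, 229 and 177 genes). Calculations used Python 3.11.15, numpy 2.4.6, pandas 2.3.3 and scipy 1.17.1, and were tested on simulated data.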

Additional observations from a re-analysis of the deposited data

How the results depend on the processing

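Library order and replicate numbers cannot be matched and the tables hold no value per library. No paired analysis was possible because of this, and edgeR, DESeq2, other size factors and leaving out replicates could not be run. Counts of called splicing factor genes depended on the setting, as did the share of all tested genes called, given after each count. With anti-CTLA-4 the count was 1 when adjusted over tested genes only (9.06%), 1 at a larger mean of at least 5 RPKM (13.9%), 3 at 1 RPKM (21.2%), 1 on library size scaling (7.67%) and 1 when centred on the median (6.14%), against 0 as reported (4.23%). With anti-PD-1 DANA it was 3 (8.95%), 2 (12.9%) and 5 (20.7%) under the first 3 of these, 0 after Bonferroni adjustment (0.191%) and 0 when centred in 20 bins of level (6.13%), against 1 (3.75%). On library size scaling the 1 gene was Hnrnpll and not Sf3b1. With anti-PD-1 DANA Hnrnpll was also called over tested genes only, at 1 RPKM and, without Sf3b1, when centred on the median (5.10%). With the combination it was 0 after Bonferroni adjustment (0.415%), 0 when centred on the median (8.07%) and 0 in 20 bins (7.67%), against 2 (7.53%). At a larger mean of at least 5 RPKM (22.1%) and at 1 RPKM (26.7%), Hnrnpa2b1 was called there besides Sf3b1 and Hnrnpf. Hnrnpll was among the genes added in each of these anti-CTLA-4 settings but the filter at 5 RPKM, which added Hnrnpdl. Sf3b1 with anti-PD-1 DANA also missed the threshold when centred on the median, at -1.57, and in 20 bins, at -1.50, and with the combination in 20 bins Sf3b1 stood at -1.45 and Hnrnpf at -1.32. For the combination over anti-CTLA-4 the count was 1 over tested genes (1.98%), 1 at 1 RPKM (4.82%) and 2 on library size scaling (1.63%), and over anti-PD-1 DANA 1 (1.26%), 1 (3.59%) and 1 (1.28%), against 0. Hnrnpll, lower with the combination, was called in each of these settings, joined by Hnrnpf on library size scaling over anti-CTLA-4. A filter on the larger mean keeps genes that are high in 1 arm alone. Hnrnpll passed it at 1 RPKM only through its means of 1.01 RPKM with anti-CTLA-4 and 1.12 RPKM with anti-PD-1 DANA. Its calls under that filter, against isotype and between treatments, therefore give no separate support. The other spliceosome genes counted 2, 4, 5, 2 and 2 with anti-CTLA-4 (tested genes, 5 RPKM, 1 RPKM, library size, 20 bins) against 1. The matching shares of all tested genes were 9.06%, 13.9%, 21.2%, 7.67% and 6.35%. With anti-PD-1 DANA they counted 7, 9, 13, 2 and 2 (tested genes, 5 RPKM, 1 RPKM, library size, median), and 0 after Bonferroni adjustment, against 1. The matching shares of all tested genes were 8.95%, 12.9%, 20.7%, 6.82%, 5.10% and 0.191%. The 2 genes on library size scaling or centred on the median were Prpf3 and Snrpb2, both higher, and not Son. With the combination they counted 10, 8 and 12 (tested genes, 5 RPKM, 1 RPKM) and 0 after Bonferroni adjustment, against 5. The matching shares of all tested genes were 12.5%, 22.1%, 26.7% and 0.415%. On library size scaling (7.62%) those called were Prpf38a, Prpf40b, Snrpb2 and Srpk3. Centred on the median (8.07%) they were Prpf3, Prpf40b, Snrnp35, Snrpb, Snrpb2 and Srpk3. In 20 bins (7.67%) they were Acin1, Snrnp35, Snrpb2 and Srpk3. The cause was not tested. The median fold change of the splicing factors turned from -0.73 to 0.21 with anti-CTLA-4 and from -0.69 to 0.12 with anti-PD-1 DANA on library size scaling, and from -0.33 to 0.09 with the combination when centred on the median.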
